A study of Schizosaccharomyces pombe with 3 samples.

Results

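The flocculin genes of the fission yeast Schizosaccharomyces pombe, gsf2 and pfl2 to pfl9, were examined on arrays that map where the corepressor Tup12 sits on chromatin. The members were found by name, as every open reading frame (ORF), upstream intergenic and long intergenic feature carrying the symbol or systematic identifier of one of these 9 genes. This gave 21 of the 10197 genomic features on the array, made up of 10 ORF, 9 upstream and 2 long intergenic features. All arrays came from a strain with GFP-tagged Tup12 grown in rich YES medium to mid-log phase. DNA recovered with an antibody against GFP, labelled with Cy5, was hybridised beside input DNA labelled with Cy3. The 3 arrays, listed as separate experiments, form 1 group and are numbered in the order of their records. Dyes were not swapped, an untagged control strain is not analysed here, and neither the promoter of the tagged gene nor any other allele of the strain is given in the labels. No other strain, treatment or time was compared, so the comparisons lie between features of the same arrays.

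Flocculins are cell-surface glycoproteins that make yeast cells stick together into flocs. In fission yeast, Gsf2 is the main flocculin and the Pfl proteins are its relatives, several of which carry a DIPSY domain. Wild-type cells do not flocculate in usual growth, and flocculin genes are switched on by the activators Mbx2 and Cbf12 or by loss of repressors. Tup12 and its paralogue Tup11 belong to the Tup1 family. These proteins lack DNA-binding domains of their own and act, with Ssn6, at genes where sequence-specific repressors recruit them, and in budding yeast loss of Tup1 makes cells flocculate.

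Each value is the log2 ratio of immunoprecipitate over input, set so that the median of its array is 0. A feature was called enriched or depleted where limma's test of its mean against 0, over 3 arrays, gave a Benjamini-Hochberg adjusted p under 0.05 across all 5461 features with a value on every array. The p-values rest on the spread between these 3 arrays, which limma draws toward a spread shared by all features. A feature whose own arrays disagree can therefore still be called. The number of arrays limits the precision. A ratio could be formed for 63.4% to 67.9% of the 19942 genomic spots of an array, and pairs of arrays correlated at r = 0.73 to 0.84 across features. Empty and buffer spots passed the spot flags at a rate of 41.7% to 48.8% in the immunoprecipitate channel and of 1.68% to 2.12% in the input channel. A feature with rejected input has no ratio, whatever its immunoprecipitate signal. Features named for an intergenic region were treated as lying upstream of the gene in their name. The files do not say so, but across 115 divergent gene pairs at most 600 bp apart, which share their upstream region, the values of the paired features correlated at r = 0.79, against r = 0.18 across 80 convergent pairs at the same spacing. The sources used here do not give the place of the amplified stretch within the upstream region.

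Of the 9 flocculin genes, 6 had at least 1 feature measured on all arrays. The stretches upstream of pfl5 and pfl3 were the 2 enriched among 5 tested intergenic members, and those of pfl4 and pfl7 were not called. None was depleted with the array median as zero. With the median of intergenic features as zero, pfl5 alone was enriched and the pfl4 long intergenic feature and both pfl7 intergenic features were depleted (-0.76, -0.85 and -0.75, limma adjusted p = 0.031, 0.016 and 0.028). Among all tested intergenic features 42.2% were enriched and 7.77% depleted, so the members' share is near the background. Of 5 tested ORF members, pfl8 was enriched and pfl4 was depleted, against 8.19% enriched and 38.8% depleted among all tested ORF features. The median over the 5 intergenic members was -0.17, against 0.51 over all 2238 tested intergenic features. The pfl4 and pfl7 intergenic features came from the brightest 25% of input, where the median ratio of intergenic spots was -0.20 to -0.05. The median over the 5 ORF members was -0.33, against -0.49 over all 3223 tested ORF features.

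The sequences below are the 300 bases before the annotated start of 4 of the genes and of abc3, the divergent neighbour of pfl7, read from RefSeq's ASM294v3 assembly. They were chosen because the upstream features of pfl5, pfl3 and abc3 were enriched, that of pfl9 was high on 2 arrays and that of pfl7 was not called. Whether the amplified stretches fall within these windows is not known. All are written 5′ to 3′ toward the gene. Capitals mark TATAAA on either strand, the letters of the TATA element found at many regulated promoters. The pfl5 window is chrII:4421095-4421394 on the plus strand, and the pfl3 window is chrII:672836-673135 on the minus strand. The pfl9 window is chrI:5527392-5527691 on the plus strand. The pfl7 window is chrII:119329-119628 on the minus strand and the abc3 window is chrII:122342-122641 on the plus strand.
pfl5: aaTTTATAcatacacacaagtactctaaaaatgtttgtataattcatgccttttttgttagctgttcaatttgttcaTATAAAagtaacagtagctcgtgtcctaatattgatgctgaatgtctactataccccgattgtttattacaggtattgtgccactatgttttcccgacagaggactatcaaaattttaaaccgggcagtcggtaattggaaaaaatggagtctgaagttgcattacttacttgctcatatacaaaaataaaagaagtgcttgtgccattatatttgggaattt
pfl3: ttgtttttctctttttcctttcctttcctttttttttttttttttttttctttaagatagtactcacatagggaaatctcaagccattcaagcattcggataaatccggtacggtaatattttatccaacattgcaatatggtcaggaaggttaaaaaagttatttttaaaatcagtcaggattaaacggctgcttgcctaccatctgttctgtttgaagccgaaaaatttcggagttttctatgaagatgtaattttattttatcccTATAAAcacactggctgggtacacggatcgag
pfl9: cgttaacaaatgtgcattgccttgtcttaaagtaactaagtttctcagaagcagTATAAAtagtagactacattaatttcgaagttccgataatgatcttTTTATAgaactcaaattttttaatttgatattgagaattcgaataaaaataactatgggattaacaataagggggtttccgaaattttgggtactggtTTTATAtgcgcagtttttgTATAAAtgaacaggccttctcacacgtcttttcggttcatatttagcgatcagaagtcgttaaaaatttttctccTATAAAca
pfl7: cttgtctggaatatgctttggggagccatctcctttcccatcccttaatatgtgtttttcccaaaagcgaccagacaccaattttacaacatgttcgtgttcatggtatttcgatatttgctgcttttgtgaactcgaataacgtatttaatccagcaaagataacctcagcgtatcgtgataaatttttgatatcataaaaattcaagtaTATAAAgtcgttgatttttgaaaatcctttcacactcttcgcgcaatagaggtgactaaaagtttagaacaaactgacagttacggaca
abc3: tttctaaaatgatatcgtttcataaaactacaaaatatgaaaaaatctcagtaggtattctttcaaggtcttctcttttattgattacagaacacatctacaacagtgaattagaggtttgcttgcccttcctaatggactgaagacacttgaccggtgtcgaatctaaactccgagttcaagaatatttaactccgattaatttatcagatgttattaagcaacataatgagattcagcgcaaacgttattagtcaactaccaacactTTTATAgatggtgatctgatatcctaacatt

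TATAAA stands in all 5 of these windows, in 5 of the 9 flocculin windows, and in 51.2% of the 5112 windows of the same length before coding genes. Both strands were also searched for GTGGGAA, the motif of the CSL proteins Cbf11 and Cbf12, for the stress element CCCCTC, for TGACGT, the core of sites for ATF and CREB factors, and for GCAACG, part of an element of cell-cycle genes. None of these letters occurs in the windows before pfl3 to pfl9. The gsf2 window holds TGACGT, found in 6.03% of all windows, and the pfl2 window holds both TGACGT and GCAACG, the latter found in 8.16% of all windows. GTGGGAA is in 1.45% and CCCCTC in 1.94% of all windows. The bases printed for pfl5, pfl3, pfl7 and abc3 have a similar composition, with 33.0%, 33.7%, 36.3% and 33.0% G and C against a median of 32.0% over all windows, and that for pfl9 has 31.0%.

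The flocculin genes are spread over all 3 chromosomes of ASM294v3, each with 1 coding exon. Of the 9, 5 lie within 200 kb of a chromosome end, with pfl6 closest at 42.1 kb and then pfl9 at 50.2 kb, pfl8 at 99.8 kb, pfl5 at 114 kb and pfl7 at 118 kb. The other 4 lie 670 kb to 1588 kb from an end. Upstream, 7 of the genes face a gap of 2736 bp to 6764 bp to the next coding gene. The gap is 417 bp for pfl2 and 1396 bp for pfl6. The annotated 5′ untranslated region is long for gsf2 (2040 bases), pfl4 (1615 bases) and pfl2 (1063 bases), so in these genes the stretch next to the start codon is annotated as transcribed.

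Tup12-GFP was enriched upstream of pfl5, which encodes a cell-surface glycoprotein. The upstream feature gave 1.90, 2.69 and 1.28 on replicates 1, 2 and 3. All 3 arrays were above 0, with replicate 2 the highest, and all 6 spots passed, with single spots between 1.20 and 2.84. The mean was 1.96 ± 0.71 (SD, n = 3), a 3.89-fold ratio (95% interval of the log2 value 1.35 to 2.56, limma adjusted p = 6.2e-06). This mean lies above 91.2% of tested intergenic features. The immunoprecipitate signal was 3239, 4458 and 1993 units per pixel. The 95th percentile of accepted empty and buffer spots was 1987, 1871 and 2123, so replicate 3 was below it. Input for this feature was 600 to 851 units per pixel, between the 25th percentile and the median of intergenic spots by input brightness on each array, where the median ratio was 0.49 to 0.69. Dim features run high across the array, and the pfl5 values on all arrays were above that median.

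The coding region of pfl5 differed between arrays. Its ORF feature gave 0.72, -1.11 and -0.60, so replicate 1 was above the array median and the others below. The mean of -0.33 ± 0.94 (SD, n = 3) was not called (limma adjusted p = 0.39). On replicate 1 the immunoprecipitate signal of this feature was 3672 units per pixel, against 935 and 1312 on replicates 2 and 3. The upstream values did not overlap the ORF values. Upstream minus ORF was 1.19, 3.80 and 1.88, with a mean of 2.29 ± 1.35 (SD, n = 3, 95% interval 1.12 to 3.45, limma adjusted p = 0.0077 over 1286 genes). Across those genes 47.6% had a higher upstream feature by the same test, and the median difference was 0.94. Only 2 members, pfl5 and pfl7, could be compared in this way, and pfl5 was the 1 called.

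The stretch upstream of pfl3, whose product is annotated as a DIPSY family glycoprotein, was enriched to a smaller degree. It gave 0.98, 1.23 and 1.20, which is a narrow range on 5 accepted spots of 6. Replicate 3 rests on a single spot. The mean was 1.14 ± 0.14 (SD, n = 3), a 2.20-fold ratio (95% interval 0.57 to 1.70, limma adjusted p = 0.0012), above 73.3% of tested intergenic features. The spots sat in bright surroundings. The local background listed for the immunoprecipitate channel was 2284, 1349 and 2574 units per pixel, against array medians of 563, 721 and 651, and on replicates 1 and 3 it exceeded the 95th percentile of the array (1795 and 2445). The spot signals were 2510, 3708 and 2312 units per pixel after the background had been taken off once. Normexp correction of the same spots took the listed background off a second time, and the mean was 0.08 (limma adjusted p = 0.86). Centred on intergenic features the mean was 0.56 (adjusted p = 0.070), and with rejected spots at a floor it was 0.77 (adjusted p = 0.16). The pfl3 ORF, measured on replicates 1 and 3 only, gave 0.41 and 0.61, below the upstream values of the same arrays.

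Next to pfl3 on its downstream side lies frp2, a ferric reductase gene, which faces it with 761 bp between them. The frp2 upstream feature gave 1.99, 1.61 and 2.43 (mean 2.01 ± 0.41, SD, n = 3, limma adjusted p = 2.2e-06), and its ORF, with values on 2 arrays, gave 1.61 and 1.12. The gene upstream of pfl3, apl2, which encodes an adaptin subunit, had an ORF value of -0.13 ± 0.25 (SD, n = 3), not called. This gene ends 3797 bp from pfl3, and its upstream feature had no value.

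The pfl5 stretch is flanked upstream, at 2736 bp, by the retrotransposon Tf2-11, whose ORF feature gave 0.22, 1.03 and -0.12 and was not called. Downstream, cao2, a gene named for a copper amine oxidase, had an ORF value of -0.50 ± 0.27 (SD, n = 3), not called, and its upstream feature, with values on 2 arrays, gave 1.35 and 0.63. Neither measured neighbouring ORF of pfl5 passed the test. The Tf2-11 sequence was not checked for copies elsewhere in the genome, so its value may not be that of this locus alone.

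**Figure D1:**
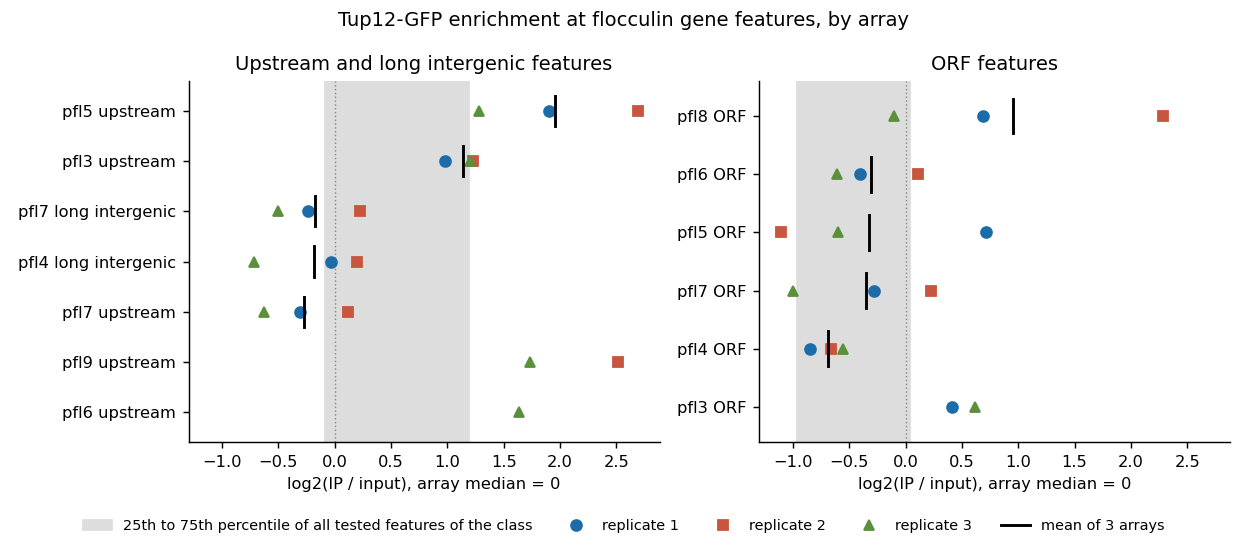
Log2 ratio of immunoprecipitate over input (horizontal axis) for each flocculin feature with a value, with a marker for each array, a bar for the mean where all 3 arrays have one, and grey for the 25th to 75th percentile of all tested features of the class. The pfl5 upstream values of 1.28 to 2.69 lie right of the grey band. The pfl7 and pfl4 intergenic values run from -0.72 to 0.22, with their means left of the band.

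Around pfl7, another DIPSY family gene, none of the 3 features was called with the array median as zero. The upstream feature gave -0.31, 0.12 and -0.63 (mean -0.27 ± 0.37, SD, n = 3, limma adjusted p = 0.43). The long intergenic feature gave -0.24, 0.22 and -0.50, and the ORF gave -0.29, 0.23 and -1.0. The upstream mean lies above 18.4% of tested intergenic features, and the long intergenic mean above 21.7%. On each feature replicate 2 was just above 0 and the others below. With intergenic features as zero all 3 were called depleted, the ORF at -0.93 (limma adjusted p = 0.017). In the authors' series matrix the long intergenic feature was called enriched at 3.08 (limma adjusted p = 0.0078). Those values follow the immunoprecipitate channel more than the ratio, so this is not enrichment over input. The input of the long intergenic feature was bright, at 4271 to 6168 units per pixel. All 18 spots of these features passed. The input of both intergenic features was above the 75th percentile of intergenic spots on every array. In that brightest 25% the median ratio was -0.05, -0.14 and -0.20 on replicates 1, 2 and 3. Upstream minus ORF was 0.08 ± 0.26 (SD, n = 3, 95% interval -0.65 to 0.81, limma adjusted p = 0.85), so the interval's upper end lies below the median difference of 0.94 over all genes.

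The upstream feature of the divergent neighbour was strongly enriched. The gene abc3, which encodes a vacuolar ABC transporter, is transcribed away from pfl7 with 3313 bp between the 2 genes. The abc3 upstream feature gave 2.91, 3.06 and 2.78 (mean 2.92 ± 0.14, SD, n = 3, limma adjusted p = 3.3e-09). It exceeded the pfl7 upstream feature by 3.22, 2.94 and 3.41 on the 3 arrays (3.19 ± 0.23, SD, n = 3) and the pfl7 long intergenic feature by 3.09 ± 0.23 (SD, n = 3). The difference is more than 10 times its SD, although an exact sign-flip test over 3 arrays cannot go below a two-sided p of 0.25. Downstream of pfl7, at 4526 bp, the amino acid transporter gene aat1 was enriched in its upstream feature at 2.13 ± 0.38 (SD, n = 3, limma adjusted p = 8.5e-07). The aat1 ORF was also enriched at 0.85 ± 0.64 (SD, n = 3, limma adjusted p = 0.018). The abc3 ORF at -0.04 ± 0.29 and the aat1 long intergenic feature at 0.49 ± 0.03 (SD, n = 3 each) were not called.

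At pfl4, annotated as a flocculin, the ORF was below the array median. It gave -0.85, -0.66 and -0.56 on 6 accepted spots (mean -0.69 ± 0.15, SD, n = 3, limma adjusted p = 0.039). All 3 arrays were below 0, but the value is ordinary for an ORF, with 38.3% of tested ORF features lower. The call was lost without replicate 1 (mean -0.61, adjusted p = 0.30) and without replicate 3 (mean -0.76, adjusted p = 0.095). Centred on ORF features, the mean was -0.26 (adjusted p = 0.50), and the call held in 7 of 15 alternatives. The long intergenic feature of pfl4 gave -0.03, 0.20 and -0.72 (mean -0.18 ± 0.48, SD, n = 3, limma adjusted p = 0.61). Its mean lies above 21.2% of tested intergenic features. Its input, at 1408, 1997 and 1638 units per pixel, was in the brightest 25% of intergenic spots, where the median ratio was -0.05, -0.14 and -0.20. The upstream feature, which the files name as missing, had no accepted input spot. Downstream, 308 bp away, the ORF of the ubiquitin protease gene ubp5 gave -0.11 ± 0.45 (SD, n = 3), not called. The ubp5 upstream feature had a value on replicate 1 alone, of 2.29.

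The ORF of pfl8, which encodes a glycoprotein, passed the test with arrays that disagreed. It gave 0.68, 2.29 and -0.10, so 1 array was high, 1 moderate and 1 at the array median. The high value on replicate 2 rests on 1 accepted spot. The mean was 0.95 ± 1.22 (SD, n = 3, limma adjusted p = 0.020), above 94.5% of tested ORF features. Without replicate 2 the mean was 0.29 (adjusted p = 0.41), and the call held in 4 of 13 alternatives. Input was 551 and 615 units per pixel on replicates 1 and 2, in the dimmest 25% of ORF spots, where the median ratio was 0.30 and 0.33. The feature upstream of pfl8 is another that the files name as missing, and no input spot of it was accepted.

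The neighbours of pfl8 were enriched on both sides. Downstream, the pyruvate decarboxylase gene pdc101 ends 283 bp from the end of pfl8. Its ORF gave 0.91, 0.72 and 1.24 (mean 0.96 ± 0.27, SD, n = 3, limma adjusted p = 0.0057), and its upstream feature, beyond that ORF, gave 3.44 ± 0.32 (SD, n = 3, limma adjusted p = 2.2e-10). Upstream, at 2866 bp, the ORF of the spore-coat gene isp3 gave 1.65, 1.29 and 0.71 (mean 1.22 ± 0.47, SD, n = 3, limma adjusted p = 8.9e-04). The isp3 upstream feature, with values on 2 arrays, gave 2.81 and 2.32. What these neighbours contribute to the signal at the pfl8 ORF was not tested.

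**Figure D2:**
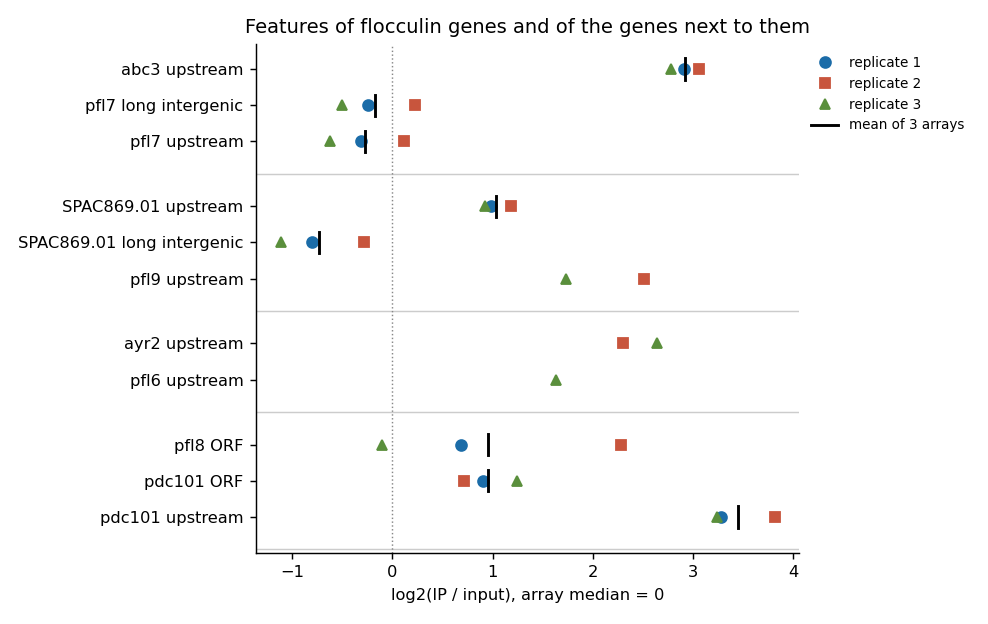
Log2 ratio of immunoprecipitate over input (horizontal axis) for features of flocculin genes and of the genes next to them, in 4 blocks separated by lines, with a marker for each array and a bar for the mean where all 3 have a value. The abc3 upstream feature lies near 2.92 on all arrays, while both pfl7 intergenic features lie between -0.63 and 0.22.

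The stretches upstream of pfl9 and pfl6 gave high ratios on the arrays that measured them, from signals within the range of empty and buffer spots. For pfl9, a DIPSY family gene, the upstream feature had no accepted input spot on replicate 1 and gave 2.51 and 1.73 on replicates 2 and 3. Its 4 measured spots lay between 1.62 and 2.78. In a fit that allowed 2 arrays, its mean of 2.12 was enriched (limma adjusted p = 4.6e-04), as were 40.2% of the 3150 intergenic features in that fit. Input was 360 and 395 units per pixel, in the dimmest 25% of intergenic spots, where the median ratio was 1.29 and 1.19. The immunoprecipitate signal was 1638 and 1549 units per pixel, below the 95th percentile of accepted empty and buffer spots (1871 and 2123). For pfl6, only replicate 3 had accepted input, at 300 units per pixel, and its value was 1.63. Its immunoprecipitate signal there, 1085 units per pixel, was below the median of accepted empty and buffer spots (1196). A value on a single array has no replicate check.

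The stretch between pfl9 and its divergent neighbour SPAC869.01 is 4583 bp long. The upstream feature of SPAC869.01 gave 0.99, 1.19 and 0.92 (mean 1.03 ± 0.14, SD, n = 3, limma adjusted p = 0.0030), and its long intergenic feature gave -0.81, -0.29 and -1.11 (mean -0.74 ± 0.42, SD, n = 3, limma adjusted p = 0.032). These 2 features of the neighbour differed by 1.77 ± 0.28 (SD, n = 3). Downstream of pfl9, the long intergenic feature of SPAC186.02c was depleted at -0.83 ± 0.38 (SD, n = 3, limma adjusted p = 0.016), and its ORF gave 0.60 and 0.75 on replicates 1 and 3. Between pfl6 and its divergent neighbour ayr2, 1396 bp apart, the ayr2 upstream feature gave 2.30 and 2.64 on replicates 2 and 3. Both features of that shorter stretch were high on replicate 3.

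The pfl6 ORF feature cannot be read as pfl6 alone. Its coding sequence of 1251 bases is 99.9% identical to that of SPBC1348.08C, a gene on another chromosome. No other pair of a member and a coding gene shared an alignment of 100 bases or more at 80% identity or above. The feature gave -0.41, 0.11 and -0.61 (mean -0.30 ± 0.37, SD, n = 3, limma adjusted p = 0.38), with the brightest input among the member ORFs at 3642 to 5611 units per pixel. The ORF neighbours on either side, ayr2 at -0.65 ± 0.71 (SD, n = 3) and SPAC977.06 at -0.66 ± 0.25 (SD, n = 3), were not called either. Only coding sequences of members were searched, so copies of these neighbours or of the pfl6 upstream stretch were not looked for.

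For gsf2, the main flocculin gene, and for pfl2, no ratio could be formed on any array. The gsf2 features were its ORF and the ORF and upstream feature of an older identifier, SPCPB16A4.07c, which the reference table lists as a synonym of gsf2. The table also holds a separate gene, smp4, under the same identifier without the final c, so these 2 features rest on that letter. None of the 18 gsf2 spots and none of the 12 pfl2 spots passed in the input channel. The gsf2 ORF passed in the immunoprecipitate channel on all 6 spots, at 721, 825 and 722 units per pixel. Accepted empty and buffer spots had medians of 905, 962 and 1196 units per pixel there, so the gsf2 signal was below the median of spots printed without DNA. The ORF under the older identifier passed on 3 spots, at 1690 and 1416 units per pixel on replicates 2 and 3. The pfl2 ORF passed on 3 spots at 1862 units per pixel on replicate 2 and 1575 on replicate 3. These values of both genes were below the 95th percentile of accepted empty and buffer spots on those arrays (1871 and 2123). The pfl9 ORF likewise had no accepted input spot, with 831, 1602 and 1294 units per pixel in the immunoprecipitate channel. Of the neighbours of gsf2, the upstream feature of SPCPB16A4.06c gave -0.34 ± 0.30 (SD, n = 3), not called, and that of the divergent gene SPCC1795.12c, 6764 bp away, gave 1.47 and 1.37 on replicates 2 and 3. The genes on either side of pfl2 had no feature matched on the array. Binding at gsf2 and pfl2 was therefore not measured, which differs from a low value.

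Altogether 10 member features had a value on all 3 arrays, 2 on 2 arrays, 1 on 1 array and 8 on none. Of the 8, 3 are upstream features of pfl2, pfl4 and pfl8 that carry the word missing in their name, which no source explains. Across the array, spots so named passed in the input channel in 1.29% to 2.15% of cases, close to the share for empty and buffer spots.

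Brightness of the input moved with the ratio across the array and among the members. Over all intergenic spots, the median ratio was 1.06 to 1.29 in the dimmest 25% and -0.20 to -0.05 in the brightest 25%. Over all ORF spots it was 0.30 to 0.37 and -1.40 to -0.90. The upstream values of pfl9 and pfl6, and the pfl8 ORF values of replicates 1 and 2, came from dim input. The pfl5 upstream feature had a mean input per array between the 25th percentile and the median of intergenic spots. The pfl3 upstream values, at 849 to 1936 units per pixel, came from above that median. The dimmest 25% of input spots, taken over ORF and intergenic features together, were also left out and the arrays centred anew. The new centring moved the bright pfl7 upstream feature from -0.27 to 0.06 and the pfl5 ORF from -0.33 to 0.0008. The pfl5 upstream feature, still called, rose by less, from 1.96 to 2.15, since some of its own spots were left out as dim. The part of brightness in the other values was not tested.

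**Figure D3:**
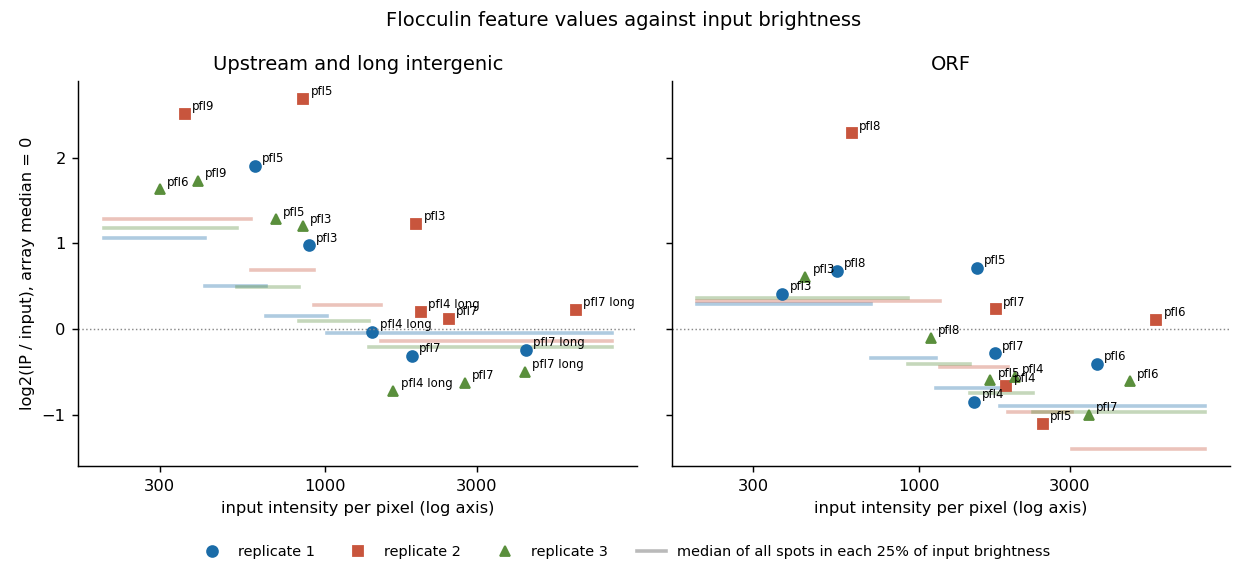
Log2 ratio of immunoprecipitate over input (vertical axis) against input intensity per pixel (horizontal log axis) for each flocculin feature and array, with horizontal lines for the median ratio of all spots in each 25% step of input brightness, drawn to the plot's range at both ends. The pfl5 upstream values lie above the lines at their brightness on every array, and the pfl9 and pfl6 upstream values come from the dimmest 25%.

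In the binding list, made by the labels' procedure of percentile ranks per array, which keeps features with a median rank at or above the 85th percentile, the pfl5 upstream feature was the 1 member of 10 measured on every array. Its median rank was 95.6. The pfl3 upstream feature fell just under the limit at 83.9, and the pfl8 ORF ranked at 70.8. The list took in 25.2% of tested intergenic features and 3.79% of tested ORF features.

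The genes most like pfl5 over its 6 values, upstream and ORF on each array, were sought among the 1286 genes with both features. By Euclidean distance the nearest was sib2, a gene of siderophore synthesis (distance 0.67), with an upstream mean of 1.98 ± 0.57 and an ORF mean of -0.13 ± 0.90 (SD, n = 3 each). The next were SPBC18E5.09C (0.91), the ribosomal protein gene rpl1001 (1.10), the RNA helicase gene ddx27 (1.17) and wtf14 of the wtf family (1.26). The upstream means of these 4 lay between 1.65 and 2.00.

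Genes that control flocculation were read from a list of 17, of which rfl1 and tup12 had no matched feature. Of 7 tested upstream features 2 were enriched and 0 depleted, and of 9 tested ORFs 0 were enriched and 5 depleted. Over all tested features, 42.2% of intergenic ones were enriched, and 8.19% of ORFs were enriched and 38.8% depleted. Upstream of cbf12, which encodes an activator of flocculation, the values were 1.44, 1.38 and 1.86 (mean 1.56 ± 0.26, SD, n = 3, limma adjusted p = 4.8e-05). For mbx2, the other activator, the long intergenic feature at -0.63 ± 0.15 and the ORF at 0.45 ± 0.26 (SD, n = 3 each) were not called (limma adjusted p = 0.057 and 0.18). Upstream of srb10, the cyclin-dependent kinase of Mediator, the mean was 1.07 ± 0.09 (SD, n = 3, limma adjusted p = 0.0022). The 5 depleted ORFs were tup11 at -1.47, the corepressor partner ssn6 at -0.88, the kinase gene lkh1 at -0.83, the Mediator gene srb8 at -0.74 and adn3 at -0.73. The lowest upstream value among features measured on all 3 arrays, at lkh1, was -0.58 and was not called, and the lkh1 long intergenic feature was depleted at -0.95 ± 0.13 (SD, n = 3, limma adjusted p = 0.0054). Medians were 0.54 upstream and -0.73 in ORFs, against 0.51 and -0.49 over all tested features.

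The sexual agglutinin genes mam3 and map4 encode the adhesins of mating cells. The map4 upstream feature was enriched at 0.71 ± 0.15 (SD, n = 3, limma adjusted p = 0.035) and its ORF depleted at -1.09 ± 0.50 (SD, n = 3, limma adjusted p = 0.0025). For mam3 the upstream mean was at the array median and the ORF mean was -0.49 ± 1.08 (SD, n = 3), neither called.

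Among 20 genes for other cell wall proteins and enzymes, 5 of 12 tested upstream features were enriched and 0 depleted, a share near the 42.2% of all intergenic features. The 5 were psu1 at 2.96, the glucanosyltransferase genes gas1 at 2.36 and gas2 at 1.33, the surface protein gene ecm33 at 1.38 and the septum glucanase gene eng1 at 1.15. Of 3 tested long intergenic features 1 was enriched, that of ecm33 at 1.78 ± 0.18 (SD, n = 3, limma adjusted p = 8.5e-06). Of 17 tested ORFs, 2 were enriched and 8 depleted, against 8.19% and 38.8% of all tested ORFs. The enriched ORFs were exg1, a glucanase gene, at 1.37 ± 0.43 and psu1 at 2.33 ± 2.23 (SD, n = 3 each), the latter with 4.89 on replicate 3 against 1.20 and 0.88. The depleted ORFs ran from agn2 at -1.76 to bgs4 at -0.80 and included the glucan synthase genes ags1 and bgs3. The lowest upstream value measured on all 3 arrays, at bgs4, was -0.59 and was not called. In size, the pfl5 upstream value lay between the upstream values of gas1 and ecm33.

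**Figure D4:**
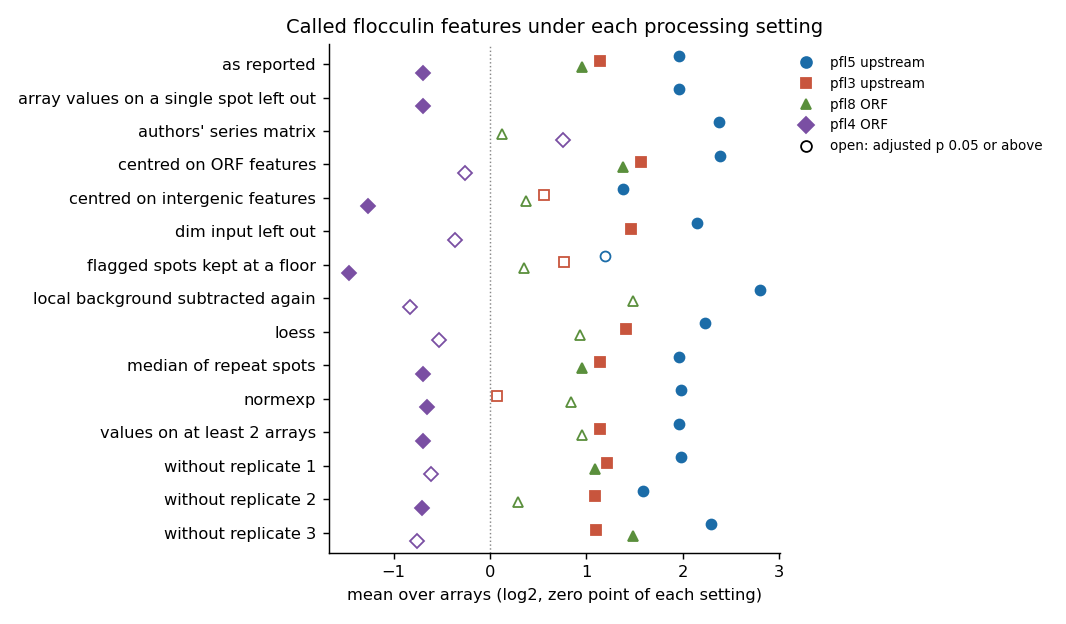
Mean log2 value (horizontal axis) of the 4 called flocculin features under the reported processing and each alternative, with filled markers where the limma adjusted p was under 0.05 and no marker where a feature had too few values. The pfl5 upstream feature stays between 1.19 and 2.80 and is open in 1 setting, where rejected spots were given a floor value, while the other 3 features are open in several settings.

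The enrichment upstream of pfl5 kept its direction in each alternative and lost its call in 1, where rejected spots were kept at a floor value (mean 1.19, adjusted p = 0.072). All 6 spots of this feature had been accepted, so that setting moved its mean through the zero of the arrays. The pfl5 upstream minus ORF mean stayed at 2.29 there. The difference between its upstream feature and ORF lost its call in the single-channel values of the authors' series matrix (1.57, adjusted p = 0.25).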

How the data were processed

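Per the labels' protocols, a ScanExpress scanner read the slides and TIGR Spotfinder quantified the spots; the sources used here give no versions and no genome build of the array. The authors deposited integrated intensity values per spot and channel, with 22176 spots per array, not normalized between channels. Local background had already been subtracted, and rejected spots (flag X) are listed at 0. A series matrix deposited by the authors holds log10 values that, per the labels, were normalized to the 50th percentile; set against the spots they followed the immunoprecipitate channel less its listed background (r = 0.81 to 0.86) more than the ratio (r = 0.26 to 0.36). Its column medians are 0.02, 0.05 and 0.03, 25.2% to 37.6% of its spots sit at a floor, and its scale and centring are not stated. It was used as an alternative.

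Log2 of Cy5 over Cy3 intensity was taken for spots not rejected in either channel and shifted so that the median of each array is 0 (the medians had been 0.52, -0.29 and 0.24), and the 2 spots of a feature on an array were averaged. The direction follows the labels' dyes. Features measured on all 3 arrays were tested against 0 with limma 3.58.1 in R 4.3.3 (lmFit, eBayes, Benjamini-Hochberg over all of them); upstream minus ORF was fitted in the same way over 1286 genes. Control spots and features named as missing were left out of tests. Names were matched to the ASM294v3 annotation (9510 of 9967 features), which also gave positions, neighbouring coding genes, windows and, with BLAST+ 2.17.0, similarity. Tables were handled with pandas 2.3.3 in Python 3.11.15.

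All 9 members were described with every feature; neighbours were the next coding gene on either side; list genes were named where called or lowest; and 5 genes most like pfl5, the member with the highest upstream mean and both features, were named. The members and lists were chosen with earlier results of these data known. Alternatives covered flags, background, normalization, centring, dim input, repeat spots, the series matrix, arrays required, each array left out, the rank limit and a limit of 1 log2 unit.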

Additional observations from a re-analysis of the deposited data

How the results depend on the processing

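The pfl7 upstream minus ORF difference was not called under any alternative run. Other values moved as follows, and the causes were not tested. The series matrix values follow the immunoprecipitate channel more than the ratio, so their signs and calls do not measure enrichment over input. In the series matrix 53 features were depleted, 0 flocculin ORFs were depleted, 4 flocculin features entered the binding list, the pfl5 upstream minus ORF difference was 1.57 without a call, the pfl4 ORF changed sign and lost its call (0.76), the pfl6 ORF (3.39) and the pfl7 long intergenic feature (3.08) changed sign and became called enriched, and 4 more uncalled features turned positive: pfl4 long intergenic (0.46), pfl5 ORF (0.81), pfl7 ORF (1.15) and pfl7 upstream (1.53). With ORF features as the zero point, 1911 features were called enriched and 677 depleted, and 0 flocculin ORFs were depleted. With intergenic features as the zero point, 626 were enriched and 2711 depleted, with 1 flocculin intergenic feature enriched and 3 depleted (pfl4 long intergenic and both pfl7 features), and 0 ORFs enriched and 4 depleted. Without dim input, 769 features were enriched and 811 depleted, with 0 flocculin ORFs called either way and 2 features in the binding list. With rejected spots at a floor, 1 intergenic and 1 ORF member were enriched and 0 members were in the binding list. Neither of the 2 was among the 10 member features measured on all 3 arrays in the reported processing. In that setting pfl5 upstream, pfl3 upstream and the pfl8 ORF were not called (limma adjusted p = 0.072, 0.16 and 0.67). After a second background subtraction, 404 features were depleted, 1 intergenic member was enriched and 0 ORF members were called. With loess, 911 features were depleted, 0 ORF members were called and 2 members were in the binding list. With normexp, which also took the listed background off a second time, 1 intergenic and 0 ORF members were enriched. With values on at least 2 arrays, 0 ORF members were enriched and 2 members were in the binding list. Leaving out array values that rest on a single spot, chosen after seeing the data, left 1 intergenic and 0 ORF members enriched. Leaving out each array in turn gave 962 to 1371 features enriched, 846 to 1348 depleted (846 without replicate 1), 2 to 3 intergenic members enriched, 0 to 1 ORF members enriched, 0 to 1 depleted, and 1 to 3 members in the binding list (3 without replicate 1). The pfl3 upstream feature could not be tested after a second background subtraction, in the series matrix or without single-spot values, nor the pfl8 ORF without dim input or single-spot values. No pairing of arrays between groups was possible because the 3 arrays form 1 group. Differences between features, such as upstream minus ORF, were taken within each array. Signal over background limits the values at dim input, where gsf2 and pfl2 gave none.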
